A study of Mus musculus with 10 samples.

Results

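The exons described here are annotated cassette exons whose length is not a multiple of 3, so that including or skipping one moves the downstream reading frame wherever it lies within coding sequence. A cassette exon was taken from RefSeq: an internal exon flanked by introns A and B in one transcript, in a gene where another transcript has a single intron from the start of A to the end of B. Inclusion is given as percent spliced in (PSI): of the FPKM of all transcripts that include or skip the exon, the percentage in those that include it. FPKM counts sequenced fragments per length of transcript and per size of library. The members were chosen by their FPKM, which summed over both forms had to be at least 1 in both lineages, and PSI played no part in the choice. Of 2157 annotated cassette exons, 754 shift the frame, and 426 of these lay under the minimum. The remaining 328 are the members, out of 1006 cassette exons above the minimum, and the other 678 keep the frame and serve as the comparison. The members comprise 319 distinct exons in 282 genes. The other entries repeat an exon with a different flanking intron, and 36 genes hold 2 or more members, so members are not independent of each other.

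The study compared splicing in mature thymocytes that keep only CD4 (CD4SP, single-positive) or only CD8 (CD8SP), the cells that leave the thymus as helper and cytotoxic T cells. All cells came from C57BL/6 mice of 6 to 8 weeks, with 2 to 3 thymi pooled per sample. Double-positive cells and those of the opposite lineage were depleted with magnetic beads, and TCRβ-positive, CD24-negative cells were then sorted. Each lineage has 4 short-read samples, which differ by sequencing lane and are pooled in 1 deposited file, and 1 long-read library. There is therefore 1 value per lineage and no replicate, no difference below has a test, and differences between mice cannot be told apart from differences between lineages.

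A cassette exon is spliced in or out as a unit. When its length is not divisible by the codon length, the shift usually brings up a stop codon in another frame, close behind the junction or inside the exon itself. A stop codon that lies well upstream of the last exon junction marks an mRNA for nonsense-mediated decay, and exons that bring such a stop are called poison exons. Genes of splicing factors are known for them. A frame shift near the 3′ end of a gene instead gives a protein with another C-terminus, and in the 5′ untranslated region (UTR) it leaves the protein as it is.

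The following exons show how inclusion or skipping set the reading frame. The sequences were read from GENCODE transcripts on GRCm38, 5′ to 3′ on the gene's strand. The first 4 run from the first base of the included exon to the stop codon that the including form meets there, with that stop in capitals. They come from Fam172a (chr13:77802455-77802503, plus strand), Dtnb (chr12:3774570-3774610, plus strand), Spopl (chr2:23541519-23541615, minus strand) and Srsf7 (chr17:80204622-80205081, minus strand).
Fam172a: ggcttaatacctgtcTAG
Dtnb: gagaggttactcctgtgtccTGA
Spopl: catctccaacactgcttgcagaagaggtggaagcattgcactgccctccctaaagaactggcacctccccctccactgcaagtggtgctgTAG
Srsf7: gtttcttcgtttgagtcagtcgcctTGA

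In another 4 genes it is skipping that brings the early stop. Their sequences start 12 bases before the junction that skips the exon and end with the stop codon, in capitals, so the skipped exon itself is not in them. The skipped exons are those of Tk2 (chr8:104236772-104236845, minus strand), Ube2w (chr1:16597951-16598053, minus strand), Abhd10 (chr16:45740319-45740502, minus strand) and Clk1 (chr1:58420121-58420211, minus strand).
Tk2: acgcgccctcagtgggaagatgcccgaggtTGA
Ube2w: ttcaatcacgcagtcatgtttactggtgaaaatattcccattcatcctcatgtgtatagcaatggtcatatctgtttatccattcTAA
Abhd10: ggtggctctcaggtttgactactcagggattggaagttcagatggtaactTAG
Clk1: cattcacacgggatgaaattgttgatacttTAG

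The next 4 exons bring no early stop in either form and give another C-terminal part. They are those of Tpm3 (chr3:90091013-90091091, plus strand), Camk2d (chr3:126841485-126841573, plus strand), Lef1 (chr3:131204933-131204973, plus strand) and Cd8a (chr6:71375888-71375918, plus strand). Tpm3 and Cd8a are printed whole, and Camk2d and Lef1 up to the stop codon inside the exon, in capitals.
Tpm3: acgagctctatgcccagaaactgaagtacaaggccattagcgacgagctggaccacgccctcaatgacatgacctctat
Camk2d: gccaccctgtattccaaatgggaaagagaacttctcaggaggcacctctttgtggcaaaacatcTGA
Lef1: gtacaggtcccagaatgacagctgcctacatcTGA
Cd8a: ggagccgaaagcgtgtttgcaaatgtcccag

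The sorted populations carried their lineage genes. Cd4 had 107 FPKM in CD4SP against 0.872 in CD8SP, and Cd8b1 had 25.6 against 464. Zbtb7b, the CD4 lineage factor, stood at 9.07 and 0.0606. Of 5 immature thymocyte markers, Rag1 was at 12.5 FPKM in CD4SP and 4.12 in CD8SP, and Cd24a at 11.8 and 10.1. The B cell marker Cd79b was at 0.583 and 4.58, and Cd79a was listed at 0 in both. Of the 4 myeloid and dendritic markers matched, none reached 1 FPKM in either library. The part of other cells in the exon values was not tested, and fewer cells of a type cannot be told apart from less RNA per cell. The depth of the libraries in reads was not known.

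Most frame-shifting exons were used at similar levels in both lineages, and a minority differed by 20 points of PSI or more. The median PSI was 48.1% in CD4SP and 44.4% in CD8SP, against 40.96% and 44.8% for frame-keeping exons. PSI lay between 10% and 90% in 196 members in CD4SP and 192 in CD8SP, so both forms carried FPKM for most. In 206 of the 328 (62.8%) PSI differed by less than 10 points, against 66.2% of frame-keeping exons. Across the members the PSI values of both libraries had a Pearson correlation of 0.867, against 0.912 for frame-keeping exons. These correlations describe exons that share 2 libraries and are not a test.

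A member was called when its PSI differed by at least 20 points. This held for 66 members in 61 genes, which is 20.1% of the 328, while 16.1% of all 1006 cassette exons and 14.2% of the frame-keeping ones were called. With RefSeq transcripts only the shares were 13.7% of frame-shifting and 13.0% of frame-keeping exons, and at a minimum of 5 FPKM 9.46% and 8.06%. CD8SP had the higher inclusion in 34 of the called members (10.4% of the 328) and CD4SP in 32 (9.76%). The corresponding shares were 8.85% and 7.26% of all cassette exons, and 8.11% and 6.05% of the frame-keeping ones. The median absolute difference was 7.09 points over the members, 6.03 over frame-keeping exons and 6.38 over all. The PSI of CD4SP is written first below, and each difference is CD8SP minus CD4SP.

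**Figure D1:**
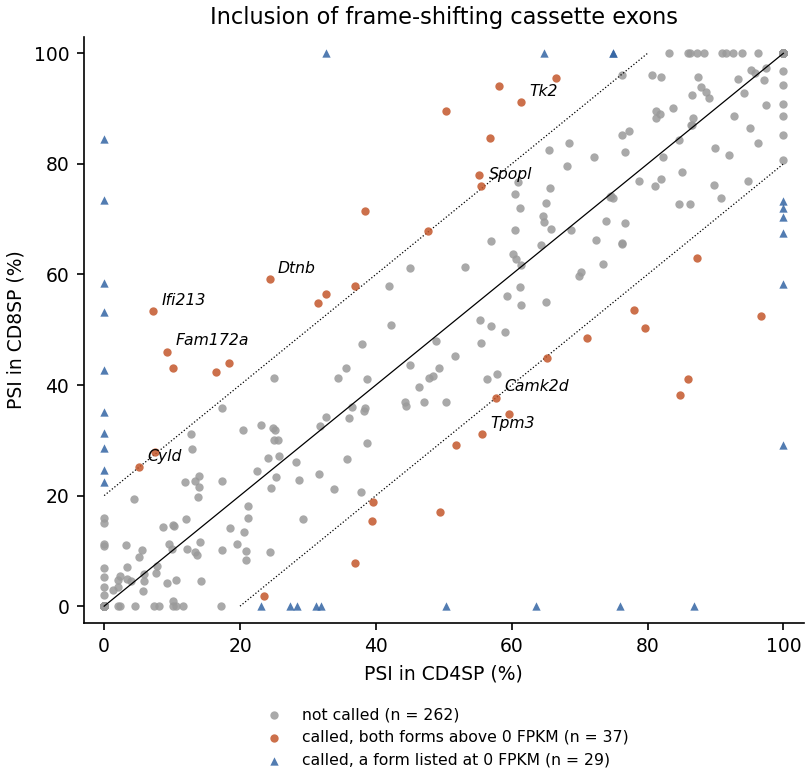
PSI of each of the 328 frame-shifting cassette exons in CD4SP (x axis, %) against CD8SP (y axis, %); the solid line marks equal PSI and the dotted lines a difference of 20 points. The 66 called exons lie on both sides of the diagonal, and 29 of them (triangles) have a form listed at 0 FPKM in a library.

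Most called members had little FPKM behind them. The summed FPKM of the lower library had a median of 4.38 over the members, against 5.70 for frame-keeping exons. Of 63 members with 1 to 2 FPKM, 23 were called (36.5%), and of 117 with 2 to 5 FPKM, 29 (24.8%). Of 71 with 5 to 10 FPKM, 9 were called (12.7%), and of 77 with 10 or more, 5 (6.49%). Frame-keeping exons had 25.5% called in the lowest class and 6.16% in the highest. At 10 FPKM and over, the called shares of both kinds of exon were thus within a percentage point of each other.

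**Figure D2:**
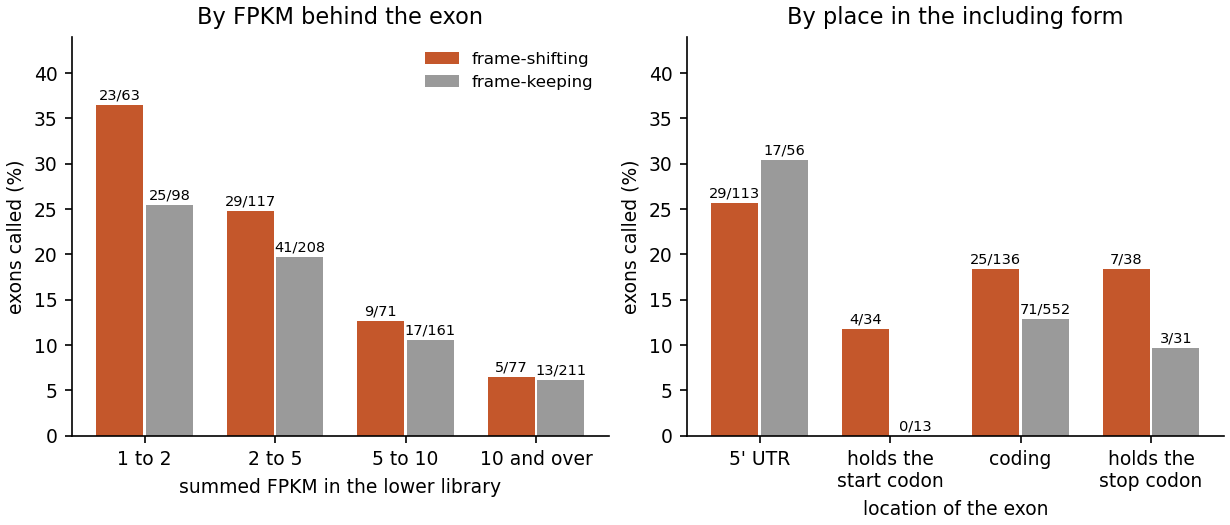
Share of exons called (y axis, %) among frame-shifting and frame-keeping cassette exons, by the summed FPKM of the lower library (left) and by place in the including form (right); the numbers over the bars are exons called over exons in the class. The share called was 36.5% of frame-shifting exons at 1 to 2 FPKM and 6.49% at 10 FPKM and over.

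Calls also rested on which transcripts were counted. Transcripts named by RefSeq carried 86.7% of the members' FPKM in CD4SP and 80.0% in CD8SP, and the rest came from transcripts assembled in each library. In called members the median share from RefSeq was 75.4% in CD4SP and 81.3% in CD8SP, against 93.8% and 96.1% in members not called. Of the 66 called, 59 had a PSI from RefSeq transcripts in both libraries. Of those 59, 28 still differed by 20 points in the same direction, 21 showed no difference and 4 went the opposite way. The RefSeq-only PSI is therefore given beside the exons named for the size of their difference, apart from Ifi213, which has none.

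An FPKM listed at exactly 0 can be a failed estimate. In 117 members a form was at 0 in a library, and 29 of these were called: 16 with the 0 in CD4SP only and 13 in CD8SP only. Among frame-keeping exons a form was at 0 in 251, and 37 of these were called. With both forms above 0 in both libraries, 37 of 211 members were called (17.5%), against 59 of 427 frame-keeping exons (13.8%). All 10 differences of 50 points or more came from members with a form at 0 in a library. Of these, Acin1 is described below because it belongs to a gene list.

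The deposited FPKM intervals give each PSI a range, from the lowest including with the highest skipping value to the reverse. The ranges of both libraries lay apart in 160 members (48.8%), near the 49.3% of all cassette exons and 49.6% of frame-keeping ones, and in 64 of the 66 called. These ranges cover the estimate of FPKM within a library and not the spread between mice. In 5 members per library the PSI even lay outside its own range.

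At the edge of the minimum, Dnmt3b, a DNA methyltransferase gene, entered with 1.002 FPKM in CD4SP and Exog, which encodes a mitochondrial nuclease, with 1.01. Just outside were Zfp672, with 0.991 FPKM in CD8SP, and Golm1, with 0.983 in CD4SP. Their PSI values were 17.4% and 22.6% for Dnmt3b, 0% in both for Exog, 100% in both for Zfp672, and 7.73% and 0% for Golm1.

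The members differed from frame-keeping exons in where they lie. Of the 328, 113 (34.5%) lay in the 5′ UTR of the including form, against 56 of 678 frame-keeping exons (8.26%). Another 136 (41.5%) lay within the coding sequence, against 552 (81.4%). The start codon lay in 34 members (10.4%; frame-keeping 1.92%) and the stop codon in 38 (11.6%; frame-keeping 4.57%). The place of 7 members could not be assigned. Median PSI differed with place: it was 23.5% and 25.1% in the 5′ UTR, 74.1% and 74.3% within coding sequence, 76.1% and 62.6% where the exon holds the start codon, and 15.4% and 24.2% where it holds the stop codon. Frame-keeping exons, in the same order, had 20.9% and 17.4%, 49.2% and 50.6%, 38.5% and 31.3%, and 18.6% and 20.1%. Low medians in the 5′ UTR and at the stop codon were thus found in both kinds of exon.

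Called members were found in each of these places. Of the 5′ UTR exons 29 were called (25.7%), of those within coding sequence 25 (18.4%), of those with the stop codon 7 (18.4%) and of those with the start codon 4 (11.8%). Frame-keeping exons had 30.4% called in the 5′ UTR, 12.9% within coding sequence, 9.68% (3 of 31) with the stop codon and 0 of 13 with the start codon. Members had a median length of 100.5 bases, from 8 to 1480, against 90 for frame-keeping exons. Exons of at most 30 bases numbered 5 among the members and 65 among frame-keeping exons. The flanking introns had medians of 2021.5 bases upstream and 2213.5 downstream, against 1799.5 and 1812.5. A remainder of 1 base after division by the codon length was found in 170 members, 32 of them called, and a remainder of 2 bases in 158, 34 of them called.

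Each form was read from an annotated start codon of its gene, and a stop more than 50 bases upstream of the last exon junction was taken as early. Where no paired transcript gave the start, as in the skipping form of Ube2w, the one most used in the gene was taken. Both forms could be read in 317 members. Exactly 1 form had an early stop in 66 of them (20.8%), against 27 of 651 frame-keeping exons (4.15%). The including form had it in 30, with the stop inside the exon in 23, and the skipping form in 36. RefSeq lists 1 of the forms as a non-coding transcript in 67 members (20.4%), against 4.42% of frame-keeping exons. The reading is a prediction from 1 RefSeq transcript per form, and no decay was measured.

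The form with the early stop was usually the minor one, yet it carried measurable FPKM. Its median share was 24.4% in CD4SP and 18.0% in CD8SP. It held more than 50% of FPKM in 13 members in CD4SP and 16 in CD8SP, and was listed at 0 in 13 and 16. It reached 1 FPKM in 37 members in CD4SP and 36 in CD8SP. Of the 66 members, 16 were called (24.2%): the early-stop form was the higher in CD8SP in 6 and in CD4SP in 10. The 10 include the Ccdc77 exons, which share a skipping transcript and are not independent. Of the 10, the Ccdc77 exons, Alg9, Ube2w and Vps39 showed no difference with RefSeq transcripts only, and Tmem41a went the other way. Of the 6, Fam172a, Nt5c2 and Mtfr1 showed none with RefSeq transcripts only, and Dtnb went the other way. Among all cassette exons with an early stop in 1 form 21 of 93 were called (22.6%), and among frame-keeping ones 5 of 27 (18.5%). Where neither form had an early stop, 49 of 248 were called (19.8%).

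**Figure D3:**
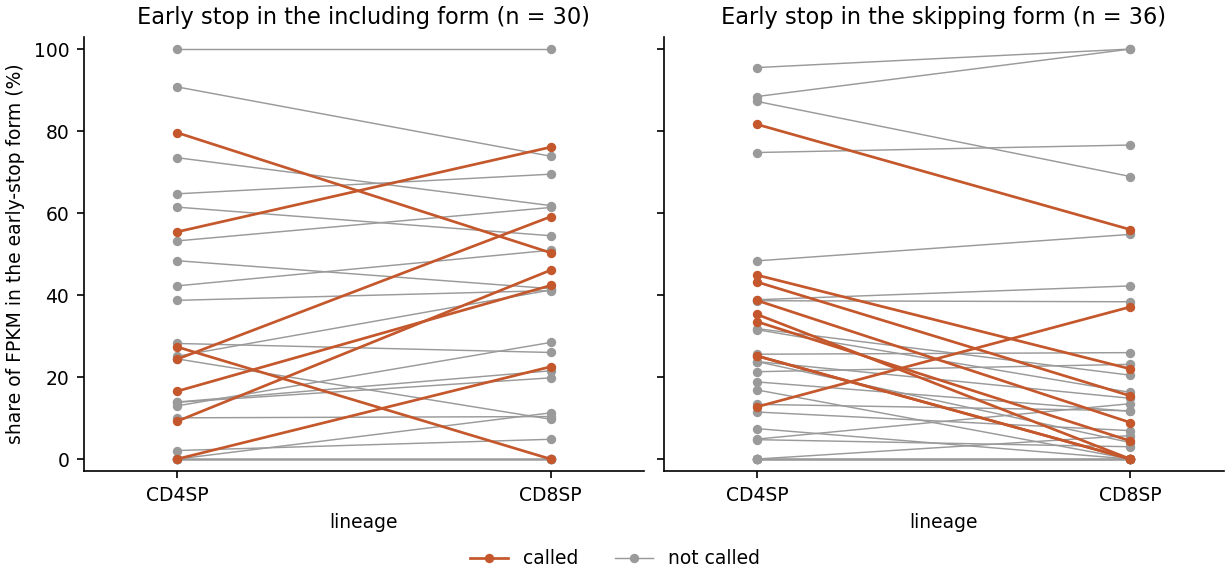
Share of FPKM in the form with an early stop (y axis, %) in CD4SP and CD8SP, 1 line per exon, for the 30 exons whose including form has it (left) and the 36 whose skipping form has it (right). Called exons run in both directions on the left, while 8 of the 9 called on the right fall from CD4SP to CD8SP. The Ccdc77 exons among the 8 share a skipping transcript and have the same PSI values. In these and in Alg9 the skipping form was listed at 0 FPKM in CD8SP. With RefSeq transcripts only, PSI was 100% in both lineages in the Ccdc77 exons, Alg9 and Ube2w. Tmem41a then went the other way, with PSI at 18.4% in CD4SP and 0% in CD8SP. The early-stop share still fell in Brat1 (PSI 54.3% and 83.4%), Afg3l1 (59.3% and 80.2%) and Tk2 (74.8% and 87.0%). Abhd10, which rises, kept its values.

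Skipping brought the early stop in 3 of the 15 exons named by the size of their difference, among members with at least 5 FPKM and both forms above 0 in both libraries. Tk2 encodes the mitochondrial thymidine kinase, and its exon of 74 bases is exon 6 in GENCODE. Its including form had 3.35 FPKM in CD4SP and 4.56 in CD8SP, and its skipping form at 2.11 and 0.445. PSI was 61.3% (range 55.6 to 66.9) in CD4SP and 91.1% (87.7 to 94.0) in CD8SP, a difference of 29.8 points. The skipping form, which reads 136 codons where the including form reads 270, was thus the low one in CD8SP. With RefSeq transcripts only the PSI values were 74.8% and 87.0%, closer together than 20 points.

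Abhd10, which encodes a mitochondrial hydrolase, showed the opposite direction. Its exon of 184 bases had 4.47 FPKM in the including form and 0.652 in the skipping form in CD4SP. In CD8SP the values were 3.19 and 1.88. PSI was 87.3% and 62.9%, a difference of -24.4 points, with ranges of 81.8 to 91.7 and 53.6 to 70.8. All of this FPKM came from RefSeq transcripts, so the assembled ones had no part in it. Skipping leaves 51 codons, against 297 with the exon, and the gene's RefSeq FPKM was nearly equal, 5.12 in CD4SP and 5.07 in CD8SP.

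Ube2w encodes a ubiquitin-conjugating enzyme. Its 103-base exon was included at 3.99 FPKM in CD4SP and 5.07 in CD8SP, and the skipping form, which reads 60 codons instead of 180, at 2.01 and 0.234. PSI was 66.5% and 95.6%, a difference of 29.1 points. This difference lay wholly in assembled transcripts, because RefSeq transcripts alone gave 100% in both lineages, and RefSeq transcripts made up 47.6% of the FPKM in CD4SP and 95.6% in CD8SP.

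By the rule of 50 bases, the including form had the early stop in Spopl, Fam172a, Dtnb and Mocs2, although that of Mocs2 ends a subunit (below). Spopl encodes an adaptor of cullin-based ubiquitin ligases. The form with its exon of 97 bases was at 4.95 FPKM in CD4SP and 5.27 in CD8SP, and the skipping form at 3.99 and 1.66. PSI was 55.4% and 76.1%, a difference of 20.7 points, with ranges of 47.5 to 59.2 and 73.7 to 83.5. The including form thus kept its level while the full-length form was the low one in CD8SP. RefSeq transcripts alone gave 50.3% and 85.2%. The including form reads 190 codons and the skipping form 392.

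Fam172a had the second-largest difference of the 15 exons named by size. Its exon of 49 bases was included at 2.45 FPKM in CD4SP and 11.02 in CD8SP, and skipped at 24.2 and 12.9. PSI was 9.21% and 46.1%, a difference of 36.8 points, and the stop shown above ends the including form after 62 codons instead of 371. RefSeq transcripts alone listed the including form at 0 in both lineages, so the difference rested on assembled transcripts. RefSeq transcripts held 20.1% of the FPKM in CD4SP and 37.9% in CD8SP.

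Dtnb, the gene of dystrobrevin beta, was at 1.63 FPKM with its exon of 41 bases and 5.05 without it in CD4SP. In CD8SP these were 3.95 and 2.73. PSI was 24.4% and 59.1%, a difference of 34.7 points. The direction reversed with RefSeq transcripts only, to 65.7% and 60.8%, and RefSeq transcripts made up 37.1% of the FPKM in CD4SP and 95.0% in CD8SP. The early stop of its including form lies 54 bases before the last junction, near the limit of 50. The stop of its skipping form lies 31 bases before the last junction. The including form reads 608 codons and the skipping form 602, so neither is cut short. Over RefSeq transcripts alone the gene was at 2.47 FPKM in CD4SP and 6.92 in CD8SP. All transcripts with either form of the exon, assembled ones included, summed to nearly equal values of 6.67 and 6.68.

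Mocs2 encodes both subunits of molybdopterin synthase from overlapping reading frames, so the stop read here in the including form is the end of the small subunit. The form with its exon of 122 bases was at 4.51 FPKM in CD4SP and 4.33 in CD8SP, while the skipping form was at 1.16 and 4.27. PSI was 79.6% and 50.3%, a difference of -29.3 points, and the difference lay in the skipping form. RefSeq transcripts alone gave 88.3% and 20.9%. The including form reads 88 codons and the skipping form 189.

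**Figure D4:**
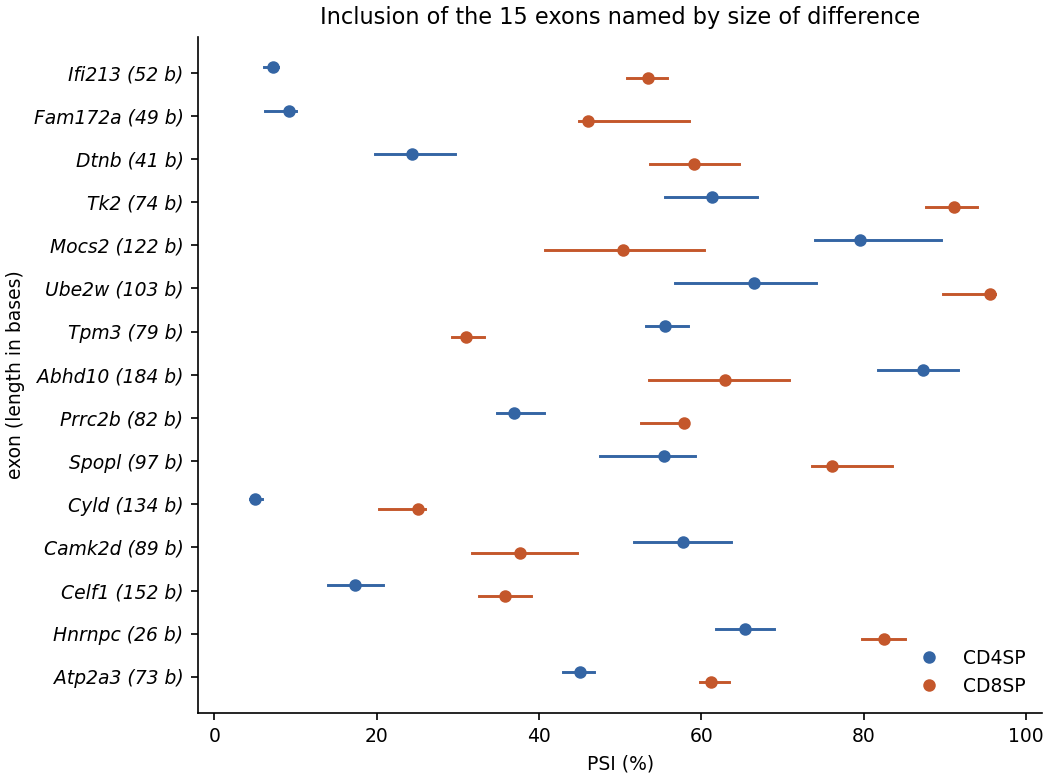
PSI (x axis, %) in CD4SP and CD8SP of the 15 exons with the largest difference among members with at least 5 FPKM and both forms above 0 in both libraries and ranges that do not overlap, 1 per gene. Points are PSI and bars the range from the deposited FPKM intervals, which is not a replicate error; the differences run from 46.2 points in Ifi213 to 16.2 in Atp2a3.

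Exons near the 3′ end gave another C-terminus without an early stop. Tpm3, a tropomyosin gene of the actin cytoskeleton, had the most FPKM of the called members named. The form with its exon of 79 bases was at 32.7 FPKM in CD4SP and 19.9 in CD8SP, and the skipping form at 26.2 and 44.2. PSI was 55.6% (53.1 to 58.3) and 31.1% (29.3 to 33.2), a difference of -24.5 points. The form that led changed with the lineage, and both read 248 codons. RefSeq transcripts alone gave 58.4% and 29.0%.

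Camk2d encodes the delta subunit of calcium/calmodulin-dependent kinase II and belongs to the list of T cell genes. Its exon of 89 bases was included at 3.12 FPKM in CD4SP and 2.004 in CD8SP and skipped at 2.28 and 3.31. PSI was 57.8% and 37.7%, a difference of -20.1 points that stands right at the threshold. RefSeq transcripts alone gave 59.6% and 47.1%, short of 20 points in the same direction. The including form reads 499 codons and the skipping form 478, with the last codons of the including form in the exon printed above.

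Atp2a3, the gene of an endoplasmic reticulum calcium pump, differed by less than 20 points but at higher FPKM. The form with its exon of 73 bases was at 13.6 FPKM in CD4SP and 20.1 in CD8SP, and the skipping form at 16.6 and 12.7. PSI was 45.0% (42.9 to 46.8) and 61.2% (59.9 to 63.4), all of it from RefSeq transcripts. The forms read 1038 and 999 codons. Prrc2b, with an exon of 82 bases, stood at 3.87 and 6.61 FPKM in CD4SP and at 6.79 and 4.94 in CD8SP for including and skipping. Its PSI was 36.9% and 57.9%, and 35.5% and 56.1% with RefSeq transcripts only. The including form reads 2230 codons and the skipping form 1486, although the exon is number 31 of 32. Whether the transcripts read for the forms differ elsewhere was not tested. The PSI of Prrc2b in CD8SP lay outside its own range of 52.5 to 57.2.

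Exons in the 5′ UTR or at the start codon made up the other 4 of the 15. Ifi213 belongs to a family of interferon-inducible genes. Inclusion of its exon of 52 bases was at 1.89 FPKM in CD4SP and 26.5 in CD8SP, while skipping was at 24.3 and 23.2. PSI was 7.24% and 53.4%, a difference of 46.2 points. The lineages thus differed mainly in the including form. No RefSeq transcript of the gene had FPKM above 0 in either library, and reads can be shared among the similar genes of this family, so the value is uncertain.

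Cyld, which encodes a deubiquitinase that restrains NF-κB signalling, included its exon of 134 bases at 0.930 FPKM in CD4SP and 3.52 in CD8SP, and skipped it at 17.5 and 10.5. PSI was 5.06% and 25.1%. Skipping thus led in both lineages, and RefSeq transcripts alone listed the including form at 0 in both. Celf1 encodes an RNA-binding protein that regulates splicing and mRNA stability. Its exon of 152 bases, which holds the start codon, had a PSI of 17.4% and 35.8%, and RefSeq transcripts alone gave 0% in both.

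Hnrnpc encodes a nuclear RNA-binding protein that coats nascent transcripts. Its exon of 26 bases was included at 21.4 FPKM in CD4SP and 34.9 in CD8SP and skipped at 11.3 and 7.41. PSI was 65.4% and 82.5%, a difference of 17.1 points. RefSeq transcripts alone went the other way, with 100% and 88.6%, and made up 47.6% of the FPKM in CD4SP and 93.1% in CD8SP. Of the 15 exons, Abhd10, Mocs2, Spopl, Tpm3 and Prrc2b were those that differed by 20 points with RefSeq transcripts only as well.

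The next 5 exons are the most abundant members among those that differ by under 5 points, so their small differences follow from the choice. Lef1, a transcription factor gene needed in T cell development, was at 181 FPKM with its exon of 41 bases in CD4SP and 138 in CD8SP, and at 7.76 and 4.99 without it. PSI was 95.9% and 96.5%. The including form reads 331 codons and the skipping form 384, with no early stop in either. The exon is number 11 of 12, and whether the transcripts read for these forms differ elsewhere was not tested. The gap in codons is therefore not assigned to the exon. Mbnl1, a splicing regulator gene, was at 94.2% and 92.9% for its exon of 95 bases. B4galnt1, which encodes a ganglioside synthase, was at 95.3% and 97.0% for its exon of 181 bases, with the early-stop skipping form at 3.87 FPKM in CD4SP and 3.86 in CD8SP while the including form stood at 78.1 and 125.

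Ly6e, the gene of a GPI-anchored surface protein, included its 5′ UTR exon of 151 bases at 10.2% and 14.6%. Rps24 encodes a ribosomal protein of the small subunit. Its exon of 20 bases was listed at 0 in both lineages, with the skipping form at 165 FPKM in CD4SP and 481 in CD8SP. RefSeq transcripts made up 82.1% of that FPKM in CD4SP and 7.35% in CD8SP.

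Genes of the splicing machinery held 13 members in 11 genes of a list of 94 splicing regulators, and 1 was called, that of Acin1. Over all members 20.1% were called, and over all cassette exons 16.1%, so a single call among 13 is too few to compare. Acin1 encodes a protein of a complex that binds spliced mRNA. Its exon of 65 bases was listed at 0 in CD4SP, with the skipping form at 1.45 FPKM, and at 1.51 and 1.07 FPKM for including and skipping in CD8SP. PSI was 58.5% in CD8SP, from assembled transcripts, since RefSeq transcripts alone listed the including form at 0 in both. The median absolute difference of the 13 was 4.78 points, against 7.09 over all members. Of the 19 frame-keeping exons of these genes, 1 was called too.

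In 3 members of this list a single form had an early stop, and none of the 3 was called. These 3, and the other list members named after them, were chosen after their values were seen. Srsf7, an SR protein gene, included its exon of 460 bases, with the stop shown above, at 15.1 FPKM in CD4SP and 19.8 in CD8SP, and skipped it at 8.22 and 8.71. PSI was 64.7% (59.5 to 69.7) and 69.5% (63.1 to 73.7), and the ranges overlapped. With all transcripts counted, the early-stop form therefore held most of the FPKM in both lineages. RefSeq transcripts alone gave 17.0% and 50.2%, which are further apart than 20 points. By these values the skipping form led in CD4SP, so the likeness of the lineages depends on the assembled transcripts. The including form reads 137 codons and the skipping form 235.

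Clk1 encodes a kinase that phosphorylates SR proteins. Its exon of 91 bases was included at 11.1 FPKM in CD4SP and 6.79 in CD8SP, and skipped at 32.8 and 22.2. PSI was 25.2% (23.7 to 28.5) and 23.4% (21.1 to 26.8). Both lineages thus carried mainly the skipping form, which reads 135 codons instead of 483 and ends at the stop shown above. Luc7l, which encodes a component linked to the U1 snRNP, included its early-stop exon of 71 bases at 38.7% and 41.1%. Ptbp3, a gene of the polypyrimidine tract-binding family, included its exon of 34 bases at 13.3% and 9.87%.

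Of a list of 30 factors of nonsense-mediated decay and the exon junction complex, 2 genes held 3 members and none was called. With 20.1% of all members and 16.1% of all cassette exons called, 3 members are too few to read anything from this. Rnps1, which encodes a protein that joins the exon junction complex, included its 5′ UTR exon of 122 bases at 2.56 FPKM in CD4SP and 1.97 in CD8SP, and skipped it at 2.96 and 3.004. PSI was 46.4% and 39.6%, a difference of -6.78 points and the largest of these 3 members. RefSeq transcripts alone gave 51.5% and 32.0%, a difference of -19.6 points that is just short of a call. Of the list's 27 genes at 1 FPKM or more, none differed 2-fold between the lineages, while 1729 of 8316 genes did (20.8%). The median log2 ratio of these genes on the log2(FPKM + 0.1) scale was 0.27, beside 0.32 over all genes tested. Single genes among these 27 lay on both sides, from Upf1 at 0.75 to Xrn1 at -0.67, which were chosen after their values were seen.

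Of the 115 T cell genes listed, 10 held a member each and 1 was called, Camk2d above, against 20.1% of all members and 16.1% of all cassette exons. Of the 17 frame-keeping exons of these genes, 1 was called. The median absolute difference of the 10 was 2.07 points. Cd8a, the gene of the CD8 alpha chain, has a well-known exon of 31 bases whose skipping gives the form with a shortened cytoplasmic tail. It was included at 5.70 FPKM in CD4SP and 140.2 in CD8SP and skipped at 3.78 and 80.0. PSI was 60.1% (55.9 to 64.3) and 63.7% (62.7 to 64.7), with overlapping ranges. The level of the gene thus differed widely between the lineages while the share of the exon differed by 3.53 points. The including form reads 247 codons and the skipping form 222.

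Stat5a, which encodes a cytokine signal transducer, had a PSI of 96.3% and 83.7% for its exon of 52 bases, with the skipping form at 0.449 FPKM in CD4SP and 1.65 in CD8SP. Ccr9, the gene of a thymic homing chemokine receptor, had 31.7% and 23.9% for its 5′ UTR exon of 68 bases, all from RefSeq transcripts. Nfatc2, a transcription factor gene activated by calcineurin, had 65.1% and 72.9% for its exon of 86 bases. The skipping form of Fyn, Skap1, Cbfb and Cd247 was listed at 0 in both lineages, so their PSI was 100%.

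Some exons were counted with more than one flanking intron, and the choice of upstream intron then changed the value. Ndufs1, which encodes a core subunit of respiratory complex I, has a 5′ UTR exon of 104 bases. With an upstream intron of 4170 bases the including form was listed at 0 in CD4SP and at 3.12 FPKM in CD8SP. With an upstream intron of 4328 bases it was at 2.58 FPKM in CD4SP and listed at 0 in CD8SP. The PSI values were 0% and 35.0% for the former and 31.2% and 0% for the latter. Each of these differences rests on a form listed at 0, and how FPKM was divided between the similar transcripts was not tested. Ndufs1 was chosen after its values were seen.

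The genes that hold members were compared at the level of the gene, summed over RefSeq transcripts. Of 267 such genes at 1 FPKM or more, 41 differed at least 2-fold (15.4%), against 20.8% of all 8316 genes tested. These shares are not on equal terms: members needed 1 FPKM in both lineages, and the genes tested needed it in either. Among the genes of called members 13 of 56 differed at least 2-fold (23.2%), and among those of members not called 28 of 211 (13.3%). Most of the 56 genes of called members thus differed less than 2-fold over RefSeq transcripts. Assembled transcripts are left out of these levels and can change them. Dtnb, counted as differing, had 6.67 FPKM in CD4SP and 6.68 in CD8SP over all transcripts with either form of its exon.

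The long-read libraries covered few of these exons. Of 8289 isoforms in CD4SP and 9476 in CD8SP, 397 and 527 were multi-exon isoforms that match every junction of an annotated transcript. A member was covered by such an isoform in 14 cases over both libraries. A single form was seen in 9 members in CD4SP and 10 in CD8SP, and in 7 and 8 of these it was the form above 50% in short reads. The skipping form was the one seen in all 9 of the CD4SP cases and in 8 of the 10 in CD8SP. In Tpm3 an isoform of the skipping form was listed in both lineages and none of the including form. In Lef1 1 isoform, in CD8SP, carried the exon. In Mbnl1 the isoform seen in each lineage skipped the exon, although its short-read PSI was above 90%. Each isoform is listed once without reads, so no share could be given.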

How the data were processed

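RNA of the sorted thymocytes was measured by rRNA-depleted paired-end short reads and by long-read cDNA libraries, per the labels' protocols. The deposited transcript files, 1 per lineage with 4 lanes pooled, give FPKM with an interval for RefSeq and assembled transcripts as an attribute text, written by Cufflinks per the file headers. Per the submitters' processing notes the build was GRCm38, and the tools named, with no step assigned to any, were Cufflinks 2.1.1, TopHat2 2.0.14, RSEM 1.3.1, Trimmomatic, FastQC and GSNAP. Reads sequenced per library are not stated in these sources. The deposited long-read tables give other values, the exon number and length of each isoform, and a further table of TPM-like values was not used because its identifiers are not paired with genes.

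Stranded multi-exon transcripts entered PSI, computed with Python 3.11.15 and numpy 2.4.6. The code was run on simulated transcripts with FPKM set to a known PSI and 1 transcript per form. That checks the computation only and not the FPKM estimates or the assembled transcripts. An exon was called at a difference of 20 points, and no test was made because each lineage has 1 pooled file. PSI ranges were computed from the deposited intervals, and 4.89% of RefSeq transcripts in CD4SP and 5.19% in CD8SP have an FPKM outside their own. Symbols were found for 29457 of 30604 RefSeq identifiers. Each form was read in its RefSeq transcript of highest FPKM, on GENCODE M21 sequence, from the start codon of the paired GENCODE transcript, or else the start that most transcripts of the gene use. Exon numbers count within 1 GENCODE transcript. A gene differed when its higher FPKM was at least 1 and its log2(FPKM + 0.1) ratio reached a 2-fold change.

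Named exons are the 15 with the largest difference among the 63 members, 1 per gene, with 5 FPKM, both forms above 0 and ranges apart; every called member of 3 gene lists (splicing regulators, decay and exon junction complex factors, T cell genes), or else the largest; the 5 most abundant that differ by under 5 points, 1 per gene; and the 2 on each side of the minimum. The members, lists and rules were chosen with earlier results of these data known. Alternatives covered the FPKM minimum, the transcripts counted, forms at 0, repeated exons, the ranges, an added 0.1 FPKM and the threshold.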

Additional observations from a re-analysis of the deposited data

How the results depend on the processing

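The 66 calls became 14 of 148 exons at a minimum of 5 FPKM, 140 of 522 with any FPKM above 0, 40 of 292 with RefSeq transcripts only, 37 of 211 with both forms above 0, 122 at 10 points and 29 at 30 points. In that order, the 34 higher in CD8SP became 8, 75, 19, 20, 62 and 16, and the 32 higher in CD4SP became 6, 65, 21, 17, 60 and 13. The 96 frame-keeping calls became 30 of 372, 232 of 985, 77 of 593, 59 of 427, 229 and 44. The shares called, frame-shifting against frame-keeping, were 9.46% and 8.06%, 26.8% and 23.6%, 13.7% and 13.0%, 17.5% and 13.8%, 37.2% and 33.8%, and 8.84% and 6.49%. The 16 calls with an early stop in 1 form became 7 at 5 FPKM, 9 with RefSeq transcripts only, 28 at 10 points and 3 at 30 points. The median PSI in CD4SP of 48.1% became 43.2% at 5 FPKM and 41.8% with any FPKM above 0. A higher minimum, a stricter threshold and the condition on forms test fewer exons or demand more by construction; for RefSeq transcripts only the cause was not tested. Of the 66, 27 of the 52 with a value kept their call and direction with RefSeq transcripts only, and 58 of 66 did with 0.1 FPKM added. Counting each exon once (61 calls), requiring ranges apart (64) and adding 0.1 FPKM (58) moved the count of calls by less than 1.5 times. Of 24 named exons, 22 had a value with RefSeq transcripts only: Dtnb turned from 34.7 to -4.94 points and Hnrnpc from 17.1, under the threshold, to -11.4, and 9 others moved. No paired analysis was possible because the lanes that share numbers in the labels are pooled in 1 file per lineage, and for the same reason no sample could be left out. Depth per library is unknown, and members with 1 to 5 FPKM are the least certain.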
